A study of Drosophila melanogaster with 15 samples.

Results

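Ion channels and fast transmitter receptors set how a neuron fires and how it responds to its inputs, and their genes were followed here through 6 lists of chromatin features from the mushroom body (MB), the brain centre for olfactory memory in Drosophila. The set was defined by gene symbol: every symbol beginning with nAcR, the prefix of the nicotinic acetylcholine receptor subunits, together with 36 named genes. This gave 44 genes, of which 30 encode channels or their auxiliary subunits and 14 encode receptor subunits. Of these, 28 (17 channels and 11 receptors) were named in at least 1 list, among 7766 genes named in all. The 8 nAcR symbols were taken from the lists themselves, so all of them are listed by construction. In the RefSeq annotation 2 nicotinic subunit genes had no row.

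The lists came from chromatin immunoprecipitation and sequencing (ChIP-seq) of MB nuclei, pulled down from head homogenates of strain CS10 flies by FLAG-KASH, a tagged protein of the nuclear membrane. According to the study's methods, FLAG-KASH was driven by MBp-LexA, which labels the α/β and γ lobes strongly and the α'/β' lobe weakly, so the nuclei stand for an unequal mixture of MB neurons pooled from many flies. H3K9Ac and H4K16Ac, acetylated forms of histones H3 and H4, were each profiled in 3 libraries from flies 1 day after spaced training (repeated pairings of an odour with shock, separated by rests) and 3 libraries from naive flies. CREB, a transcription factor, and CRTC, its coactivator, had 1 library each from spaced-trained flies in the labels, and 1 input library came from naive flies. The study's methods describe sites called in replicate libraries of each factor. The label of the 1 CREB library and that of the 1 CRTC library each names the list of its factor. Support from replicates can therefore not be read from these lists. The CRTC list used here has 3002 rows, fewer than the CRTC sites the paper counts, so it is not the paper's full set.

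As background, potassium channels end action potentials and set the interval between them, sodium and calcium channels carry the depolarizing currents, and leak channels hold the resting potential. MB neurons receive odour input through acetylcholine acting on nicotinic receptors, and inhibition through GABA acting on receptors that contain Rdl. CREB binds DNA near promoters and recruits coactivators when phosphorylated, or together with CRTC when CRTC enters the nucleus, and it is known for its part in long-term memory. H3K9Ac and H4K16Ac are marks found mostly at the promoters and bodies of active genes.

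All positions are on the dm3 build. A peak or site belongs to the gene that the lists name for it. The CREB and CRTC lists and the lists of increased regions give the distance to a nearby transcription start site (TSS), whereas the peak tables measure it from the longest transcript, so the distances of the same place can differ between lists. The rows of each peak table start over along the genome 3 times, giving 3 runs that carry no library names, and no table used here gives values or depth per library, so the groups were not retested and no error between flies can be given. Of the marker genes checked, 4 of 5 general neuronal genes and 7 of 14 MB genes had an H3K9Ac peak, against 2 of 6 glial genes, 1 of 12 photoreceptor genes and none of 6 fat body, 7 muscle and 3 hemocyte genes. For H4K16Ac the counts were 3 of 5 neuronal, 8 of 14 MB, 2 of 6 glial and 3 of 12 photoreceptor genes. CREB sites were named for 3 of 5 neuronal, 6 of 14 MB and 1 of 6 glial genes. They were also named for 3 of 12 photoreceptor and 1 of 3 hemocyte genes, and for no fat body or muscle gene. Of RefSeq protein-coding genes outside the members, 34.9% had an H3K9Ac peak, 40.6% an H4K16Ac peak and 17.2% a CREB site. The purity of the nuclei cannot be read from such short lists.

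Channel and receptor genes had CREB sites in a larger share, and H4K16Ac peaks in a smaller share, than the other named genes. A CREB site was listed for 19 of 28 genes (67.9%, 95% Wilson interval 49.3 to 82.1), against 32.5% of the 7738 other named genes and 32.7% of all named genes. A CRTC site was listed for 7 of 28 (25%, interval 12.7 to 43.4), against 21.5% of other genes, which is also the share over all genes. An H3K9Ac peak was named for 14 of 28 (50%, interval 32.6 to 67.4), against 65.8% of other genes, which was within the interval. An H4K16Ac peak was named for 10 of 28 (35.7%, interval 20.7 to 54.2), against 76.3% of other genes, and its interval lay wholly below that share. Peaks of both marks were named for 5 members (17.9%), Ih, Shal, pain, nAcRalpha-34E and nAcRalpha-7E, against 58.1% of other genes.

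The members were also divided by kind of feature, with sites and peaks matched by gene name. A site of either factor and a peak of either mark were both present at 10 members (35.7%, interval 20.7 to 54.2), against 21.9% of other genes, which was within the interval. A site without any peak under the gene's own name was present at 9 members (32.1%), against 13.5% of other genes: Irk3, Nmdar2, Ork1, SK, Sh, elk, nAcRalpha-96Aa, nAcRalpha-96Ab and unc79. Among these, the sites of elk lay within 10 bp of H4K16Ac peaks named for the adjacent gene. The remaining 9 (32.1%) had peaks and no site, whereas 64.6% of other genes had no site. Shares among listed genes depend on which genes are listed, so the same counts were set against all protein-coding genes of the RefSeq annotation, a denominator chosen after the counts were seen. RefSeq synonyms added the listed symbols Ir (Irk1), trpm (Trpm) and CR30068 (Ih), of which the first 2 stood for members without a row, and the annotation added 2 further nicotinic subunits. On that scale 21 of 46 members had a CREB site (45.7%, interval 32.2 to 59.8), against 17.2% of 13916 other genes, and 10 of 46 had an H4K16Ac peak (21.7%, interval 12.3 to 35.6), against 40.6%. The share with an H3K9Ac peak was 30.4% of members, against 34.9% of other genes, a difference smaller than the width of the members' interval. Gene length was not compared, so its part in these shares was not tested.

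**Figure D1:**
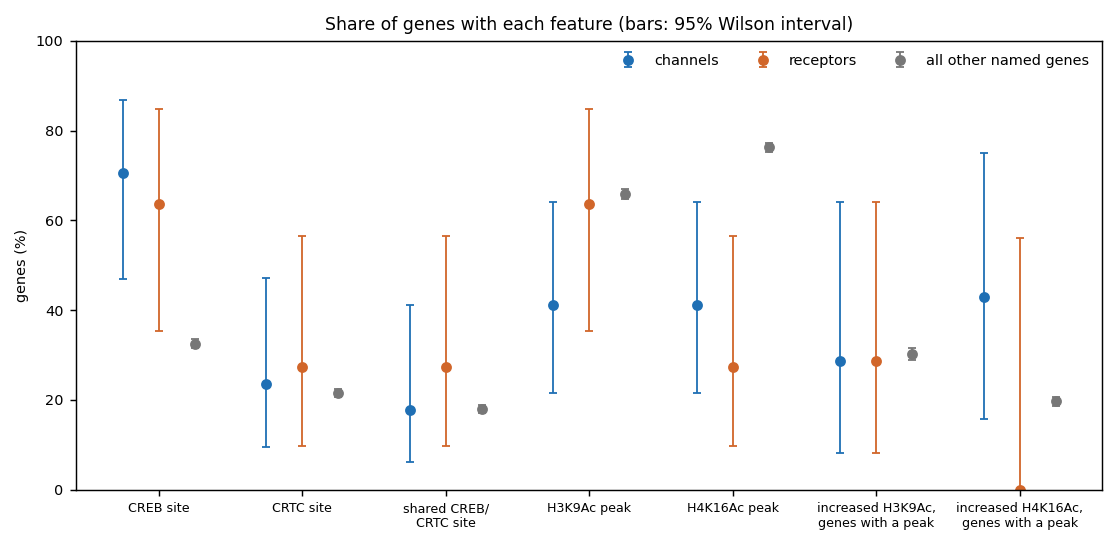
Share of genes (%) with each feature in channels (blue, n = 17), receptors (orange, n = 11) and all other named genes (grey, n = 7738), with 95% Wilson intervals; the last pair of features is shown among genes with a peak of that mark. Channels and receptors sat at 70.6% and 63.6% for CREB sites, against 32.5% of other genes, and at 41.2% and 27.3% for H4K16Ac peaks, against 76.3%.

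The plot of every site and peak shows how unevenly the values were spread over the members. The 27 CREB sites had enrichment factors (the ERD caller's ratio of ChIP to background reads) between 3.07 and 20.32, with a median of 6.06, against a median of 6.17 over the 4776 sites of other genes. The 9 CRTC sites ranged from 2.78 to 7.62 with a median of 4.05, against 4.67. The sites were thus of ordinary height for their lists, apart from a few that are described with their genes.

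**Figure D2:**
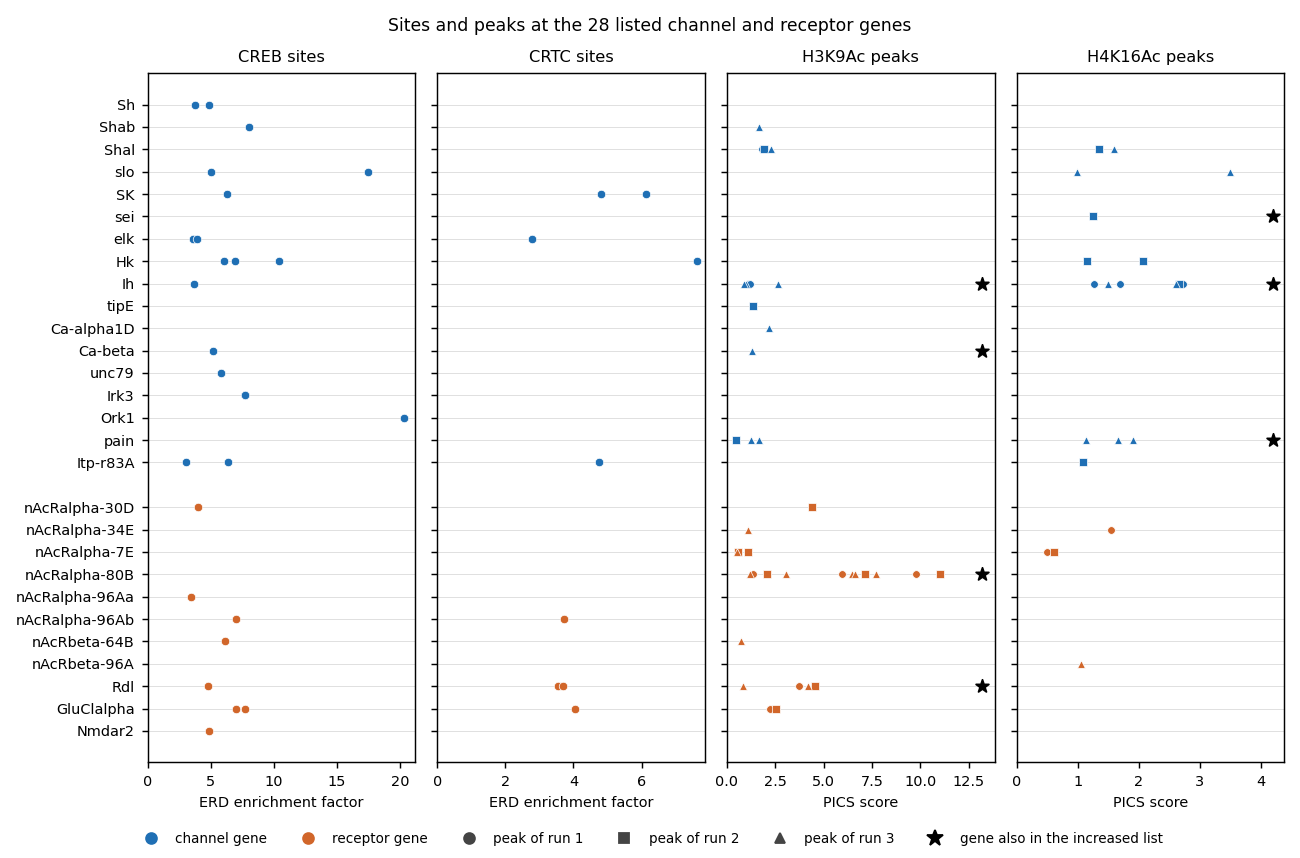
Every row named for the 28 listed members, with the ERD enrichment factor of CREB and CRTC sites and the PICS score of H3K9Ac and H4K16Ac peaks on the x axes, and channels (blue) above receptors (orange). Circles, squares and triangles in the peak panels are runs 1, 2 and 3 of the table, and stars mark the 4 genes with an increased H3K9Ac region and the 3 with an increased H4K16Ac region; Ork1 and slo stand apart for CREB, at 20.32 and 17.48, and nAcRalpha-80B for H3K9Ac, with a score of up to 11.

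Among the potassium channels and Hk, their auxiliary subunit, 8 of 11 genes were listed, 6 with a CREB site. Shaw, eag and KCNQ had no row in the lists analysed here. The gene slo, the calcium- and voltage-activated channel of large conductance, had CREB sites at chr3R:20489754-20489794 with an enrichment factor of 17.48 and at chr3R:20493632-20493728 with 4.99. The first was the 133rd highest of the 4803 CREB sites and lay 1541 bp downstream of a TSS, while the weaker one lay 139 bp upstream of a TSS. At slo there were also 2 H4K16Ac peaks, both in an intron and both in run 3 of the table, with scores of 3.51 at chr3R:20491474-20491874 and 0.991 at chr3R:20491804-20492204. The stronger peak was at the 91.6th percentile of the H4K16Ac scores and had the highest H4K16Ac score of any member, although the other runs named no peak there.

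SK, a calcium-activated channel of small conductance that shapes the pause after a spike, had a CREB site at chrX:5234085-5234130 with an enrichment factor of 6.27, 138 bp upstream of a TSS. A CRTC site of 6.14 at chrX:5234055-5234070 lay 15 bp from it, and another CRTC site of 4.82 lay 24046 bp away at chrX:5258176-5258265. The nearest acetylation peak to the shared place was 6731 bp away and was named for the neighbouring gene CanB. SK was the only member with a shared site at which both enrichment factors were above 5.

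The gene elk, a channel of the ether-à-go-go family, had CREB sites of 3.59 at chr2R:13756876-13756930 and 3.90 at chr2R:13759490-13759556, with a CRTC site of 2.78 at chr2R:13756805-13756877 that overlapped the first. These were low values, at the 13.6th and 18.4th percentiles of the CREB list and the 7.83rd of the CRTC list. The sites lay 4521 bp and 1895 bp upstream of the TSS of elk, within 190 bp of H3K9Ac peaks and within 10 bp of H4K16Ac peaks named for Mapmodulin, the adjacent gene. The gene elk thus had sites without peaks of its own, in places where both marks were named for another gene.

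Hk, the beta subunit of Shaker channels, had 3 CREB sites, more than any other member. Their enrichment factors were 6.06 at chrX:10139323-10139401, 10.42 at chrX:10144550-10144636 and 6.95 at chrX:10155530-10155536, at 710, 5937 and 163 bp upstream of a TSS. A CRTC site of 7.62 at chrX:10141560-10141666 was the highest CRTC value of any member, at the 88.0th percentile, and lay 2159 bp from the nearest CREB site. Hk thus carried both factors without a shared place. Its H4K16Ac peaks, both in run 2 and both intronic, scored 2.07 at chrX:10140808-10141208 and 1.15 at chrX:10140984-10141384, and the weaker peak lay 176 bp from the CRTC site.

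Sh, the gene of the fast-inactivating Shaker channel, had CREB sites of 4.86 and 3.78, at 3737 bp downstream and 6578 bp upstream of a TSS, and no acetylation peak within 50000 bp of either. Shab, a delayed rectifier, had a CREB site of 8.01 at 159 bp upstream of a TSS and 1 H3K9Ac peak of 1.67 in an intron, 898 bp away, in run 3. These sites stood at the 33.1st and 16.8th percentiles of the CREB list for Sh and at the 67.8th for Shab. Shal, which encodes an A-type channel of dendrites and cell bodies, had no site, but it was named for H3K9Ac in each run, with scores of 1.81, 1.94 and 2.28 in the intron and 5′ UTR at chr3L:19577372-19577460 and the places overlapping it. H4K16Ac at Shal scored 1.34 at chr3L:19577080-19577480 in run 2 and 1.59 at chr3L:19577226-19577626 in run 3. The gene sei, an ERG-type channel that protects against heat-induced seizures, had 1 H4K16Ac peak over a coding exon, with a score of 1.25 in run 2 at chr2R:19936806-19937206, and this 400 bp region was also in the list of increased H4K16Ac. The nearest increased H3K9Ac region and the nearest H3K9Ac peak, 414 and 534 bp away, were named for gammaSnap, the adjacent gene.

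Ih, the hyperpolarization-activated cation channel that steadies the resting potential, was the only member named in both lists of increased regions. The increased H3K9Ac region was chr2R:10176146-10176546, 152 bp upstream of a TSS, and the increased H4K16Ac region was chr2R:10175847-10176247, 178 bp downstream of a TSS. The regions overlapped. The highest H4K16Ac score of Ih in runs 1, 2 and 3 was 2.73, 2.67 and 2.61, at the 76.4th to 79.2nd percentile, which made Ih the only member with an H4K16Ac peak in every run. Under the symbol Ih, H3K9Ac had 2 peaks in run 1 (1.10 and 1.20), none in run 2 and 3 in run 3 (0.993, 2.65 and 0.883). The listed symbol CR30068, which RefSeq gives as an older name of Ih, had 1 further H3K9Ac peak in each run, in a 5′ UTR, with scores of 3.24 in run 1, 3.46 in run 2 and 3.52 in run 3. These peaks, at chr2R:10163826-10163886 in run 3, lay 12236 to 12278 bp from the increased H3K9Ac region and were higher than any H3K9Ac peak listed under Ih. A CREB site of 3.67 at chr2R:10177431-10177473, at the 15.2nd percentile of the list, lay 885 bp from the increased H3K9Ac region and 1184 bp from the increased H4K16Ac region. The H3K9Ac peak nearest to this CREB site, 46 bp away at chr2R:10177373-10177385, was named for CR30066. No CRTC site was listed for Ih, and the nearest, named for Shroom, was 17325 bp from the CREB site. Measured from the longest transcript, the peaks of Ih were intronic and 9019 to 9820 bp downstream of the TSS, so the lists and the peak table refer to different start sites of this gene.

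Of the sodium and calcium channel group, 4 of 7 genes were listed, and para, Ca-alpha1T and na had no row in the lists analysed here. Ca-beta, the cytoplasmic beta subunit of voltage-gated calcium channels, was in the list of increased H3K9Ac at chr2L:11167106-11167506, 389 bp downstream of a TSS. The only H3K9Ac peak there scored 1.32 at chr2L:11167289-11167323 and was in run 3, at the 19.2nd percentile. A CREB site of 5.17 at chr2L:11168795-11168857 lay 1289 bp from the increased region. Neither of the other runs named a peak of Ca-beta. Ca-alpha1D, the pore of the L-type calcium channel, had 1 H3K9Ac peak of 2.17 in run 3, 1899 bp upstream of the TSS, and tipE, an auxiliary subunit of the sodium channel, had 1 of 1.33 in run 2, 643 bp upstream. The gene unc79, part of the complex of the sodium leak channel na, had a CREB site of 5.79 at 7005 bp downstream of a TSS and no peak.

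Of the 4 leak and inwardly rectifying potassium channels, 2 were listed, Ork1 and Irk3, both with CREB sites and without an acetylation peak. Ork1, the open rectifier leak channel, had the highest CREB value of any member, with an enrichment factor of 20.32 at chrX:10787235-10787291, the 61st of 4803 sites and at the 98.7th percentile. The site lay 2278 bp upstream of the TSS, with the nearest H3K9Ac peak at 5471 bp, the nearest H4K16Ac peak at 5508 bp, both named for CG1582, and the nearest CRTC site at 37494 bp. Irk3, an inward rectifier, had CREB sites at chr2L:18714208-18714264 and chr2L:18714420-18714512, both with 7.69, at 445 and 657 bp upstream of a TSS. The nearest peak of either mark was 5472 bp from the first. Irk1 and Irk2 had no row under these symbols. The symbol Ir, which RefSeq gives as a synonym of Irk1, had CREB sites of 7.85 at chr3R:18999268-18999332 and chr3R:18999604-18999648 and a CRTC site of 4.96 at chr3R:18999618-18999682, which overlapped the second CREB site. Counted under that name, the inward rectifiers would add 1 gene with a shared site.

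Of the transient receptor potential (TRP) channels, 1 of 5 was listed. The gene pain (painless), a channel for noxious heat and mechanical stimuli in sensory neurons, was in the list of increased H4K16Ac at chr2R:20815248-20815648, 149 bp downstream of a TSS. Its H4K16Ac peaks, all intronic and all in run 3, scored 1.91 at chr2R:20814828-20815228, 1.13 at chr2R:20815000-20815400 and 1.66 at chr2R:20815248-20815648. H3K9Ac at pain scored 1.24 and 1.66 in run 3 and 0.472 in run 2. The nearest CREB site was 14048 bp away and was named for Tina-1. The genes trp, trpl, Trpm and TrpA1 had no row under these symbols, and the symbol trpm had 1 CREB site of 3.65 at chr2R:11178763-11178805.

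Itp-r83A, the inositol trisphosphate receptor that releases calcium from the endoplasmic reticulum, had CREB sites of 3.07 at chr3R:1342863-1342890 and 6.40 at chr3R:1344494-1344557, at 24 and 1655 bp downstream of a TSS. A CRTC site of 4.76 at chr3R:1344497-1344559 overlapped the second, stronger one. An H4K16Ac peak in the 5′ UTR, with a score of 1.09 in run 2 at chr3R:1343189-1343589, lay 299 bp from the first CREB site and 905 bp from the second. Itp-r83A was not in either list of increased regions, and Rya-r44F, the ryanodine receptor, had no row in the lists analysed here.

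The 8 listed nicotinic subunits had little in common. A CREB site was listed for 4 of 8, a CRTC site for 1, an H3K9Ac peak for 5, an H4K16Ac peak for 3, an increased H3K9Ac region for 1 and an increased H4K16Ac region for none. The gene nAcRalpha-80B (the alpha4 subunit in RefSeq names) had 11 H3K9Ac peaks, the most of any member, against a median of 3 over other genes. Its highest score was 9.75 in run 1 at chr3L:23199454-23199546, 11 in run 2 at chr3L:23199480-23199552 and 7.70 in run 3 at chr3L:23199494-23199554, so that all runs placed a strong peak 246 to 270 bp upstream of the TSS, and the run 2 peak was the 97th of 23378. A second cluster in the 5′ UTR, at 144 to 194 bp downstream, scored 6.48 in run 3, 5.95 in run 1 and 7.15 in run 2. Further peaks lay to either side, with scores of 2.08, 1.37 and 1.18 in runs 2, 1 and 3 upstream, and of 6.62 and 3.04 in run 3 in an intron. The region chr3L:23199324-23199724, which spans the strongest peaks, was in the list of increased H3K9Ac. No CREB or CRTC site was listed for this gene, the nearest CRTC site was 106590 bp away and the nearest CREB site 131468 bp away.

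The other alpha subunits had lower values. The gene nAcRalpha-30D (alpha6) had 1 H3K9Ac peak, in run 2, with a score of 4.38 at chr2L:9885347-9885401 in an intron, at the 91.0th percentile, and a CREB site of 4.01 that lay 21682 bp from it. The gene nAcRalpha-34E (alpha5) had an H3K9Ac peak of 1.09 in the 5′ UTR in run 3 and an H4K16Ac peak of 1.54 in run 1, 945 bp apart. The gene nAcRalpha-7E (alpha3) had 3 H3K9Ac peaks of 0.496 to 1.08 and 2 H4K16Ac peaks of 0.499 and 0.613, all intronic and 34128 to 35443 bp from the TSS, and its lowest scores were below the 1st percentile of both tables.

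The genes nAcRalpha-96Aa (alpha1), nAcRalpha-96Ab (alpha2) and nAcRbeta-96A (beta2) lie close together on arm 3R, with CG31128 between the first and second in RefSeq order, and carried different features. The gene nAcRalpha-96Aa had a CREB site of 3.46 at chr3R:20283060-20283092, 181 bp upstream of a TSS, and nothing else. The gene nAcRalpha-96Ab had a CREB site of 6.97 at chr3R:20310870-20310922, 227 bp upstream of a TSS, overlapped by a CRTC site of 3.71 at chr3R:20310866-20310906. The nearest acetylation peak to that shared site, 29550 bp away, was the only peak of nAcRbeta-96A, an H4K16Ac peak over a coding exon with a score of 1.06 in run 3. In the other beta subunit gene, nAcRbeta-64B (beta1), a CREB site of 6.12 lay 1057 bp from a weak H3K9Ac peak of 0.724 in the 5′ UTR.

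Of the 4 genes for GABA-gated or glutamate-gated chloride channels, 2 were listed, Rdl and GluClalpha, and both carried CREB and CRTC. Rdl, the GABA receptor subunit named for resistance to dieldrin, had CRTC sites of 3.54 at chr3L:9172557-9172573 and 3.69 at chr3L:9183397-9183437, and a CREB site of 4.78 at chr3L:9183431-9183439 that overlapped the second. That shared place was 8182 bp upstream of a TSS, measured from the CREB site. Rdl was also in the list of increased H3K9Ac, at chr3L:9174822-9175222, 26 bp from a TSS, and this region lay 8209 bp from the CREB site and 2249 bp from the other CRTC site. The H3K9Ac peak within it was found in every run, with scores of 3.73, 4.55 and 4.17 in runs 1, 2 and 3 at about the same place, chr3L:9174979-9175065 in run 2, and a further peak of 0.853 in run 3 lay nearby. Rdl was the only member with both a shared CREB/CRTC site and an increased region, and the sites and the region were at different places along the chromosome. The H4K16Ac peak nearest to its sites was 41266 bp away.

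GluClalpha, the glutamate-gated chloride channel on which ivermectin acts, had CREB sites of 7.69 at chr3R:15556315-15556395 and 7.02 at chr3R:15557054-15557106, and a CRTC site of 4.05 at chr3R:15556362-15556426 that overlapped the first. The shared place was 254 to 285 bp upstream of a TSS. H3K9Ac peaks of 2.23 in run 1 at chr3R:15556530-15556578 and 2.56 in run 2 at chr3R:15556516-15556568 lay 104 and 90 bp from the CRTC site, and the run 2 peak was the closest approach of a member's shared site to an acetylation peak of the same gene. GluClalpha was in neither list of increased regions. Nmdar2, a subunit of the NMDA type of glutamate receptor, had a CREB site of 4.90 at 236 bp upstream of a TSS and no peak, with the nearest H3K9Ac peak 4760 bp away. Grd, Lcch3 and Nmdar1 had no row in the lists analysed here.

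**Figure D3:**
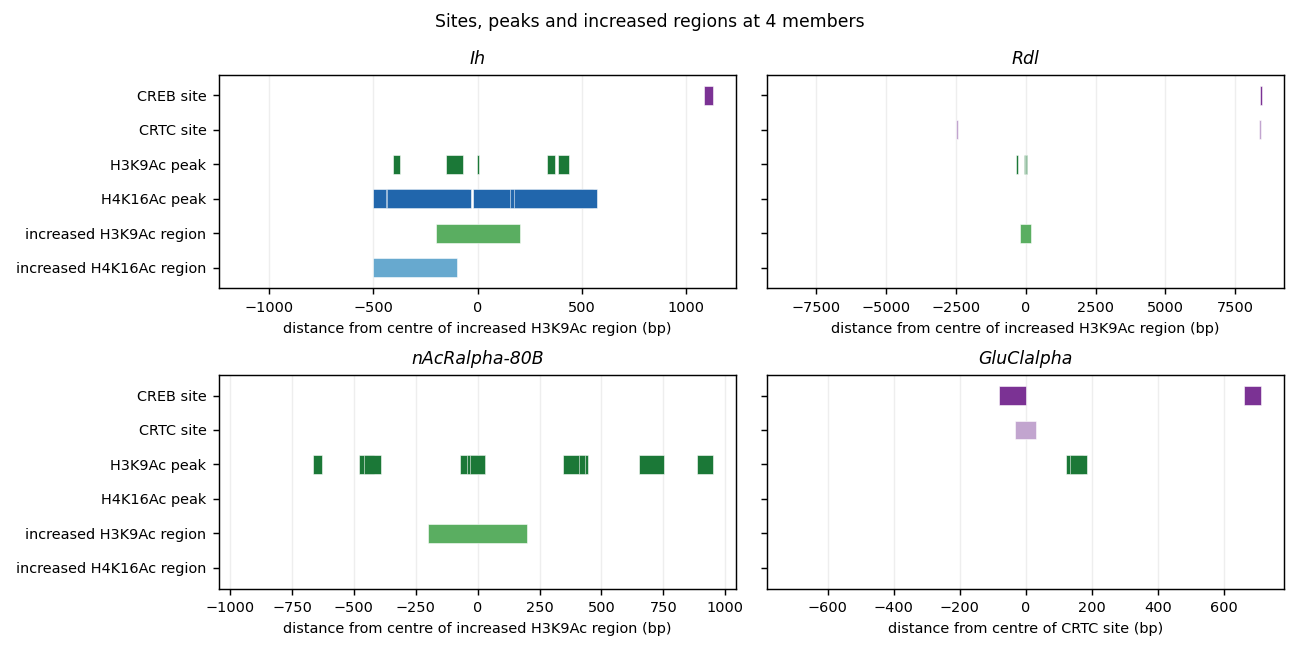
Positions of all rows named for Ih, Rdl, nAcRalpha-80B and GluClalpha, with the distance (bp, along the reference strand) from the centre of the increased H3K9Ac region, or from the centre of the CRTC site for GluClalpha, on the x axes and the kind of row on the y axes. Rows that overlap are drawn over each other, and the shortest are widened to be visible; the shared site of Rdl lies 8209 bp from its increased region, whereas the H3K9Ac peaks of GluClalpha adjoin its shared site.

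A shared site, a CREB and a CRTC site of the same gene within 200 bp of each other, was present at 6 members: elk, SK, Itp-r83A, nAcRalpha-96Ab, Rdl and GluClalpha. That was 21.4% of the 28 (interval 10.2 to 39.5), against 17.9% of other genes, and 17.9% of all named genes. The sites overlapped at 5 of the 6. Because CREB sites were frequent at members, the same 6 were a smaller part of the genes with a CREB site, 31.6% of 19 (interval 15.4 to 54.0), against 55.1% of the 2517 other genes with one, and this interval lay below that share. Likewise a CRTC site was present at 36.8% of the members with a CREB site (interval 19.2 to 59.0), against 57.3% of the other genes with one, where the interval included the share of other genes. Sites of members lay within 500 bp of a TSS in 12 of 27 cases for CREB (44.4%, interval 27.6 to 62.7), against 56.7%, and in 4 of 9 for CRTC, against 54.4%.

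CREB sites of channel and receptor genes stood farther from acetylated chromatin than those of other genes. Within 1000 bp of a peak of either mark, named for any gene, were 8 of 27 member sites (29.6%, interval 15.9 to 48.5), against 67.6% of the 4776 other sites, and the median gap was 3166 bp, against 189.5 bp. Sites of 1 gene are not independent of each other, and the interval does not allow for that. Among CREB sites within 500 bp of a TSS, 5 of 12 member sites had a peak within 1000 bp (41.7%, interval 19.3 to 68.1), against 75.2% of other sites. Among sites farther from a TSS it was 3 of 15 (20%, interval 7.05 to 45.2), against 57.7%. The direction was therefore the same near to and far from a TSS. For CRTC, 4 of 9 member sites had a peak within 1000 bp (interval 18.9 to 73.3), against 70.5% of other sites, and the interval included that share. Of the 19 members with a CREB site, 9 had no peak of either mark under their own name (47.4%, interval 27.3 to 68.3), against 37.9%, which was within the interval.

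**Figure D4:**
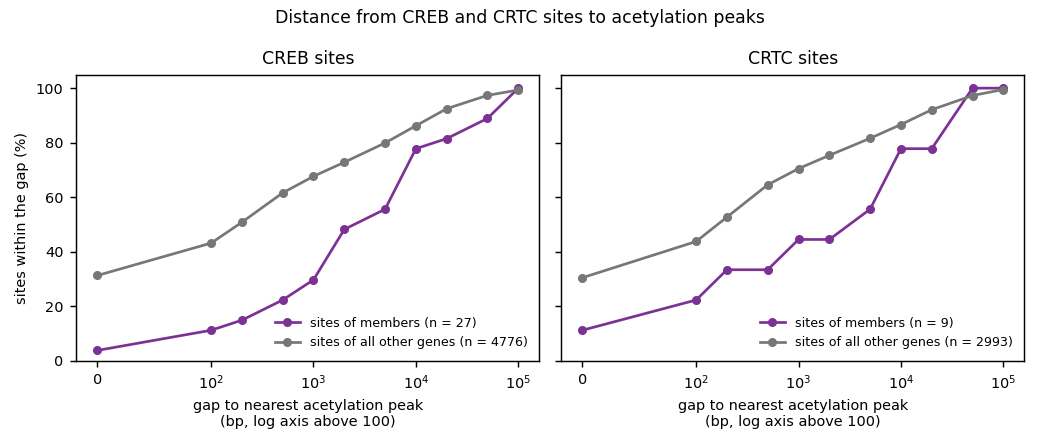
Cumulative share of CREB (left) and CRTC (right) sites (%) by gap to the nearest H3K9Ac or H4K16Ac peak of any gene (bp, logarithmic above 100), for sites of members (purple) and of all other genes (grey). At 1000 bp the curves stood at 29.6% and 67.6% for CREB and at 44.4% and 70.5% for CRTC.

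Where members had peaks, these were lower and recurred in fewer runs of the table. The median of the best H3K9Ac score was 1.92 over 14 members, against 2.78 over 5095 other genes, and that of H4K16Ac was 1.57 over 10 members, against 2.47 over 5902. By class it was 1.67 for channels and 2.56 for receptors in H3K9Ac, and 1.91 and 1.06 in H4K16Ac. Over single H3K9Ac peaks the median was 1.33 for channels and 3.04 for receptors, against 2.13 for other genes. Of the 23 H3K9Ac peaks of receptors, 11 were those of nAcRalpha-80B. An H3K9Ac peak in every run was found at 3 of 14 members, nAcRalpha-80B, Rdl and Shal (21.4%, interval 7.57 to 47.6), against 63.4% of other genes. With listed symbols joined by RefSeq name, an alternative added after seeing the data, Ih joined them through CR30068, which made 4 of 14 (28.6%, interval 11.7 to 54.7), against 63.5%. For H4K16Ac it was found at 1 of 10, Ih (10%, interval 1.79 to 40.4), against 53.5%. These intervals lay below the share of other genes. Conversely, 7 of 14 members (50%) had H3K9Ac peaks in 1 run and 7 of 10 (70%) had H4K16Ac peaks in 1 run, against 17.2% and 20.8% of other genes.

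**Figure D5:**
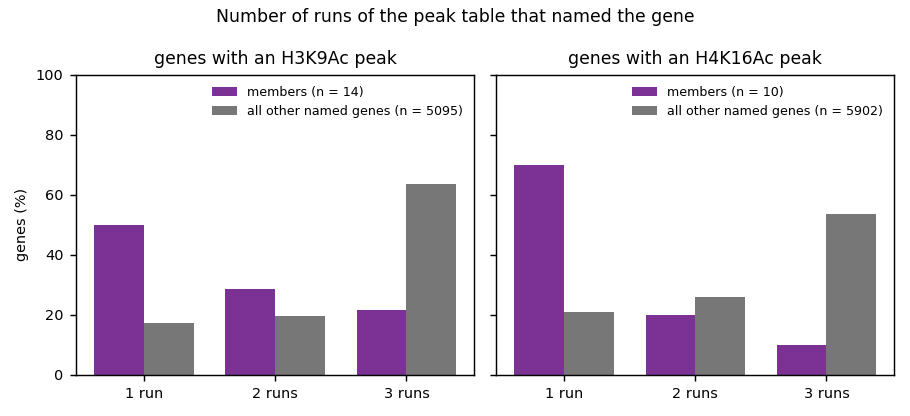
Share of genes (%) named in 1, 2 or 3 runs of the peak table, for members (purple) and all other named genes (grey), among genes with an H3K9Ac peak (left) and an H4K16Ac peak (right). Members were named in every run in 21.4% and 10% of cases, against 63.4% and 53.5% of other genes.

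The comparison of spaced-trained with naive flies reached the files as lists of increased regions, and all of these lie within 500 bp of a TSS. The lists hold 1889 H3K9Ac and 1428 H4K16Ac rows, more than the increased regions in the paper, of which only part lie so near a TSS. They are therefore not the paper's own sets. The paper also reports regions of decreased acetylation, which the lists used here do not hold. The p-value in these lists is headed as a t-test, whereas the study's methods describe DESeq2 with adjusted p-values, so "increased" means here only that a region is in the deposited list, and how its regions were selected is not stated in the lists. Increased H3K9Ac was listed for 4 members, Rdl, nAcRalpha-80B, Ih and Ca-beta, which was 28.6% of the 14 with an H3K9Ac peak (interval 11.7 to 54.7), against 30.2% of all genes with such a peak. Increased H4K16Ac was listed for 3 members, Ih, sei and pain, or 30% of the 10 with an H4K16Ac peak (interval 10.8 to 60.3), against 19.7% of all genes with such a peak. Both shares were close enough to the background that the intervals included it. These denominators count genes with a peak at any distance from a TSS. Within 500 bp of a TSS, measured from the longest transcript, lay 39.5% of member H3K9Ac peaks (interval 25.6 to 55.3), against 63.3% of other peaks. For H4K16Ac it was 23.8% (interval 10.6 to 45.1), against 60.0%. The effect of this on the shares with an increased region was not tested. Of the 6 members with an increased region of either mark, 3 had a CREB site (Ih, Ca-beta and Rdl), and the closest of these sites to an increased region was that of Ih, at 885 bp. A CREB site was present at 19 of all 28 listed members, and at 875 of the 2637 other genes with an increased region. Among the 6 members with a shared site, 1 had an increased region (16.7%, interval 3.01 to 56.4), against 38.1% of 1387 other genes with a shared site. Values per library were not analysed here, so the size of the increase and its error are not given.

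By share of genes, channels and receptors did not separate in any list by more than the error of their small numbers. Their peak scores, given above by class, were not tested for a difference. CREB sites were listed for 12 of 17 channels (70.6%) and 7 of 11 receptors (63.6%), a difference of 6.95 points (95% Newcombe interval -24.9 to 39.5). CRTC sites were listed for 4 of 17 channels and 3 of 11 receptors, a difference of -3.74 points (-36.2 to 25.8), and shared sites for 3 of 17 and 3 of 11, a difference of -9.63 points (-41.1 to 19.6). H3K9Ac peaks were named for 7 of 17 channels and 7 of 11 receptors, a difference of -22.5 points (-51.3 to 13.9). H4K16Ac peaks were named for 7 of 17 channels and 3 of 11 receptors, a difference of 13.9 points (-21.3 to 42.7). Among genes with a peak, increased H3K9Ac was listed for 2 of 7 in either class (difference 0 points, -41.0 to 41.0), and increased H4K16Ac for 3 of 7 channels and 0 of 3 receptors (42.9 points, -19.5 to 75.0; the interval on 0 of 3 reached 56.2%). Every interval included 0, and with so few genes even the widest differences given here were not distinguishable from 0. Of the CREB sites, 7 of 19 in channel genes and 5 of 8 in receptor genes lay within 500 bp of a TSS.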

How the data were processed

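The members and lists were chosen with earlier results of these data known, so no set test was run and shares are descriptive. In the study's methods, CREB and CRTC reads (MiSeq) were mapped to dm3 in CLC Genomics Workbench, acetylation reads (SOLiD) were mapped in LifeScope, and peaks were called against input with PICS and ERD in Strand NGS. Versions of the mapping and peak-calling software are not given in the sources used here. The authors deposited, for CREB and CRTC sites, the ERD enrichment factor (a ratio of ChIP to background reads) and the false discovery rate of PICS (akin to an adjusted p-value), and for H3K9Ac and H4K16Ac peaks a PICS score, which has no fixed range, with its false discovery rate. The deposited lists of increased regions also hold the authors' own fold change (spaced trained over naive), its SD and a p-value, which were not used.

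Rows were read by gene symbol, matching case. Every listed member is described, in full where it had a shared site, an increased region or 1 of the 5 highest scores of a mark. A peak's percentile is its place among all rows of its table, and a shared site is a CREB and a CRTC site of 1 gene within 200 bp. Shares carry 95% Wilson intervals and differences Newcombe intervals, which cover counting over genes, not flies or libraries. The edgeR test planned for counts per library could not be run, since the tables used here hold none. Interval and gap functions were checked on simulated data. RefSeq (Release 6 assembly) served for names and, in 1 comparison, for the set of all protein-coding genes, and matched 7627 of 7766 listed symbols. No sequence is printed, since no genome of the files' build was given. Python 3.11.15, pandas 2.3.3, numpy 2.4.6, scipy 1.17.1 and matplotlib 3.10.9 were used.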

Additional observations from a re-analysis of the deposited data

How the results depend on the processing

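Of 32 alternatives over 10 results, 20 left the value within the range set for it, which is not given here, and 12 moved it. Most of the 12 were stricter filters on a count of members, which can only lower it. The tally is therefore no check on the differences from other genes. Restricting peaks to scores at or above the table's median (2.13 for H3K9Ac and 1.91 for H4K16Ac) left 7 members with H3K9Ac and 4 with H4K16Ac, restricting them to 500 bp around a TSS left 6 and 4, and requiring a peak in every run left 3 and 1. With an enrichment factor of at least 5, 12 members kept a CREB site, 2 a CRTC site and 1 a shared site, and within 500 bp of a TSS 11 had a CREB site and 4 a CRTC site. Except for peaks in every run, the shares of other genes at these stricter settings are not given here. Whether the differences from other genes held at these settings was therefore not tested. Over members in any list, 10.7% had increased H4K16Ac (interval 3.71 to 27.2), against 17.0% of all named genes, which was within the interval. The difference in shared sites between channels and receptors, -9.63 points, turned to 5.88 points at an enrichment factor of at least 5, where 1 channel and 0 receptors were left. This change of sign was counted among the 20. RefSeq synonyms, added after seeing the data, gave 21, 8 and 7 members with CREB, CRTC and shared sites. No paired analysis was possible because the tables hold no values per library, and leaving out each replicate and the replicate block were not run for the same reason. The tables give no depth per library, and supplementary read totals were not used here. CREB and CRTC sites have no values per replicate.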

Other observations

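Other channel and receptor genes, with some associated genes, were looked up from a list of 66 genes, chosen like the members with earlier results known, and 33 of them were listed. CREB sites were listed for 18 (27.3%), CRTC sites for 13 (19.7%) and shared sites for 10 (15.2%), against 17.2%, 11.4% and 9.51% of the protein-coding genes of RefSeq outside the members. The 10 genes with a shared site were Best1, Best2, GluRIA, GluRIB, Inx3, Orai, mAChR-A, ogre, ppk and pyx (RefSeq names, where the lists have Glu-RI, Glu-RIB, olf186-F and mAcR-60C). GluRIA and GluRIB encode subunits of AMPA/kainate-type glutamate receptors, mAChR-A is a muscarinic acetylcholine receptor, Inx3 and ogre are innexins of gap junctions, and Orai is the pore of store-operated calcium entry. The shared sites of GluRIA, at chr3L:6616937-6616971, and of GluRIB, at chr3L:9244837-9244917, both lay 160 bp upstream of a TSS, and mAChR-A had 3 such pairs. Of the 66, 17 had an H3K9Ac peak (25.8%, interval 16.8 to 37.4), against 34.9%, which was within the interval. An H4K16Ac peak was named for 13 (19.7%, interval 11.9 to 30.8), against 40.6%, which was above it.

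Increased H3K9Ac was listed for 4 of these 66 genes (6.06%, interval 2.38 to 14.6, against 12.3%). They were NaCP60E (a sodium channel gene), ClC-c (a chloride channel), CG11155 and tweek, which does not encode a channel or receptor. Increased H4K16Ac was listed for 3 (4.55%, interval 1.56 to 12.5, against 9.16%), namely ClC-a, a chloride channel with 2 regions, Task7, a potassium leak channel, and Orai. For both marks the interval included the share of other genes. At Orai the increased region was chr2R:13738310-13738710 and the CREB site of the shared pair was chr2R:13739011-13739085, 301 bp from it. In this list Orai was the only gene with both a shared site and an increased region of either mark, as Rdl was among the members.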
